A study of Mus musculus with 6 samples.

Results

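The genes described here are those of elastin, the fibrillins, the fibulins and the emilins, the main proteins of the elastic fibre. Their 10 members were taken by gene symbol from the mouse count table, and are Eln, Fbn1, Fbn2, Fbln1, Fbln2, Fbln5, Efemp1, Efemp2, Emilin1 and Emilin2, of 47643 genes listed. RNA came from the entire aorta of mice that all lacked apolipoprotein E (Apoe-/-), a strain that develops raised plasma cholesterol and atherosclerosis. The EPO group (3 libraries) was injected intraperitoneally with recombinant human erythropoietin, the hormone of red cell production, daily for 4 weeks (dose 5000 IU per kg), and the Vehicle group (3 libraries) with saline over the same time. The age of the mice is not given in the sources used here, nor whether libraries came from separate animals. The p-values therefore rest on the spread among 6 libraries, which may be technical.

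Elastic fibres give the aorta its recoil. They form when tropoelastin, the soluble product of Eln, is laid down on a scaffold of fibrillin microfibrils and its lysines are cross-linked by lysyl oxidases. Fibulins and emilins sit in the fibre and its surface, and some of them bring tropoelastin, the microfibril and the cross-linking enzyme together.

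Library totals lay between 23278649 and 38502430 counts. In the whole comparison 3804 of 16522 tested genes (23.0%) were called by edgeR's quasi-likelihood test (threshold of 0.05 on the adjusted p), 12.9% higher and 10.1% lower with EPO, and over all tested genes the log2 fold change had a median of 0.01. Levels are given as CPM, a gene's count relative to the library's counts in tested genes, after scaling by the trimmed mean of M-values (TMM). Markers of the smooth muscle of the aortic wall were present in every library and took 1.97% to 2.78% of counts in Vehicle and 0.682% to 0.943% in EPO, with 7 of 8 lower. Of the other marker lists, 8 of 8 skeletal muscle genes, 6 of 6 genes of dividing cells, 4 of 6 of chondrocytes and 2 of 8 of macrophages were higher. Some of the skeletal muscle genes, with 2 to 4 counts in Vehicle 2, passed the filter on low counts only with the EPO libraries. Their calls are thus not independent of that filter. The macrophage count was 1 without Vehicle 1, 4 without EPO 2, 5 with no filter and 6 in DESeq2. The chondrocyte count was 3 in limma-voom and when any single library other than EPO 1 was left out. The count of lower smooth muscle markers was 5 without Vehicle 1. Of 7 fibroblast markers 1 was higher and 2 lower, but 0 were higher when any single library was left out, and 1 was lower without Vehicle 1, Vehicle 2 or EPO 3. Of 6 endothelial markers 2 were higher and 1 lower; 0 were higher without Vehicle 1, 2 were lower without EPO 1, and 0 were lower when any other single library was left out. Of 7 white adipocyte markers 4 were lower. The count was 2 without EPO 2, 3 without Vehicle 1, Vehicle 2 or EPO 3, and 6 without Vehicle 3 or EPO 1. It was 6 with no filter and 7 in DESeq2. In edgeR, 0 of 6 red cell, 0 of 7 lymphocyte and 0 of 5 Schwann cell markers were called, against 0, 1 and 2 at an unadjusted p under 0.05 and 0, 0 and 2 called in DESeq2. Without Vehicle 3, 2 lymphocyte markers were called, and without Vehicle 2, 1 Schwann cell marker.

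Among the elastic fibre genes, Fbn1, Fbln2 and Emilin2 were higher with EPO, as was Fbn2, and Efemp1 was lower. Fbn1 rose 3.13-fold, Fbln2 3.39-fold and Emilin2 2.08-fold, and Fbn2 went from 5 counts over the Vehicle group to 2952 over the EPO group. Eln, Fbln1, Fbln5, Efemp2 and Emilin1 did not pass the test. The members are thus 4 higher and 1 lower of 10, beside 12.9% and 10.1% of all tested genes. Every EPO library lay above every Vehicle library for 6 members, against 22.9% of tested genes, and below for Efemp1, against 21.0%. All 10 passed the filter on low counts, but Fbn2 passed it through the EPO libraries alone and so had to differ. Of the 9 other members, 3 were called higher and 5 had every EPO library above every Vehicle library. The median log2 fold change was 0.76 over the 10 members and 0.47 over the 9 without Fbn2. In whole tissue, fewer cells of a type and less RNA per cell cannot be told apart.

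**Figure D1:**
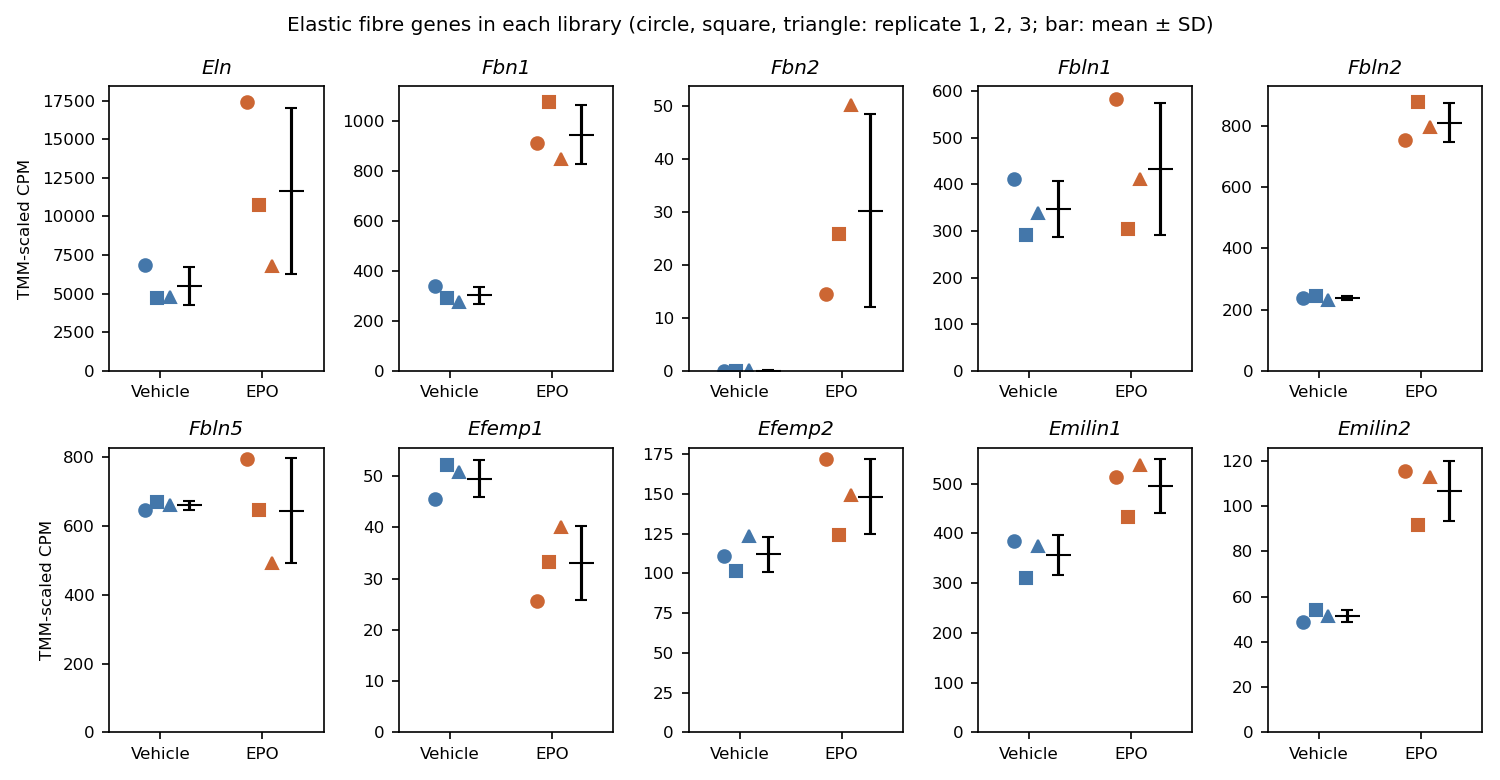
TMM-scaled CPM (linear axis from 0, a scale of its own in each panel) of the 10 elastic fibre genes in the 3 Vehicle (blue) and 3 EPO (orange) libraries; circle, square and triangle are replicates 1, 2 and 3, and the bar is the mean ± SD. The groups stand apart for Fbn1, Fbn2, Fbln2, Efemp1 and Emilin2, narrowly for Efemp2 and Emilin1, and overlap for Eln, Fbln1 and Fbln5.

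Eln encodes tropoelastin (ENSMUSG00000029675, GRCm38 chromosome 5, 134702593 to 134747323, minus strand). Its level was 6889, 4713 and 4807 CPM in Vehicle 1, 2 and 3, and 17429, 10754 and 6795 CPM in EPO 1, 2 and 3. The EPO libraries spread widely, and EPO 3 fell just under Vehicle 1, so the groups overlapped. The log2 fold change was 1.09 (SE 0.37, edgeR adjusted p = 0.0736), and over the alternatives run the adjusted p of Eln lay between 0.00613 and 0.526. Eln passed in edgeR without EPO 3 (log2 fold change 1.37, adjusted p = 0.0361) and with no filter (0.0331), and in DESeq2 (0.00613). Its log2 fold change fell to 0.67 with EPO 1 left out (adjusted p = 0.122) and to 0.32 with EPO 1 and EPO 2 left out (0.526).

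Eln was by far the most abundant member. Per kilobase of exon (the union of all annotated exons of the gene) its mean was 675 CPM (SD 152) across the 3 Vehicle libraries and 1439.8 CPM (SD 664) across the 3 EPO libraries, or 64.0% ± 3.88 and 69.5% ± 8.65 of the summed level of the 10 members. That share did not differ beyond the spread (exact permutation test, two-sided, p = 0.4). The 10 members held 0.763% ± 0.122 of a library's total count in Vehicle and 1.5% ± 0.471 in EPO. The 9 members other than Eln took 0.220%, 0.201% and 0.219% in Vehicle 1, 2 and 3 and 0.362%, 0.370% and 0.351% in EPO 1, 2 and 3. These shares were nearly the same within each group and did not overlap between groups. No test is given, because the sum includes Fbn2, which had to differ, and the other members called higher. Among single tested genes, 22.9% had every EPO library above every Vehicle library.

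Fbn1 encodes fibrillin-1, the main microfibril protein of adult tissue, whose human gene is mutated in Marfan syndrome (ENSMUSG00000027204, chromosome 2, 125300594 to 125507993, minus strand). Its level was 340.5, 290.2 and 274 CPM in Vehicle 1, 2 and 3 and 912, 1076 and 845 CPM in EPO 1, 2 and 3. Every EPO library stood well above every Vehicle library. The log2 fold change was 1.65 (SE 0.17, edgeR adjusted p = 0.00218), and it stayed between 1.49 and 1.72 over the alternatives run, all of which kept the call.

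Fbn2 encodes fibrillin-2, best known from the microfibrils of developing tissue (ENSMUSG00000024598, chromosome 18, 58008623 to 58210487, minus strand). Its counts were 1, 0 and 4 in Vehicle 1, 2 and 3, against 522, 762 and 1668 in EPO 1, 2 and 3. Vehicle was thus at or near no counts, while the EPO libraries reached 14.6, 25.9 and 50.1 CPM. The ratio of summed, scaled counts was 465 (95% interval from counting 199 to 1434, Clopper-Pearson). No test is given, because the gene entered the comparison through the EPO libraries alone. The fitted log2 fold change of 8.79 rests on those few Vehicle counts and was 10.25 without Vehicle 3, 8.21 without EPO 3 and 8.23 without Vehicle 2. Intervals and limits cover counting error only.

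The fibrillin makeup can be read within a library, because the exons of Fbn1 and Fbn2 sum to similar lengths (12128 and 13215 bases). Fbn2 gave 0.0128% of fibrillin counts in Vehicle 1 (95% interval 0.000323% to 0.0711%), 0% in Vehicle 2 (up to 0.0494%) and 0.0504% in Vehicle 3 (0.0137% to 0.129%). It gave 1.57% in EPO 1 (1.44% to 1.71%), 2.35% in EPO 2 (2.19% to 2.52%) and 5.60% in EPO 3 (5.34% to 5.87%). The intervals of the EPO libraries do not meet, so they differed from each other beyond counting error, and Fbn1 remained the main fibrillin in all 6. Fbn2 was highest in EPO 3, the library in which Eln was lowest of the EPO group. In EPO 1, 2 and 3 skeletal muscle markers took 0.105%, 0.277% and 0.0319% of counts, macrophage markers 0.518%, 0.346% and 0.311% and genes of dividing cells 0.0148%, 0.0154% and 0.0192%. Their part in the fibrillin and elastin values was not tested.

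**Figure D2:**
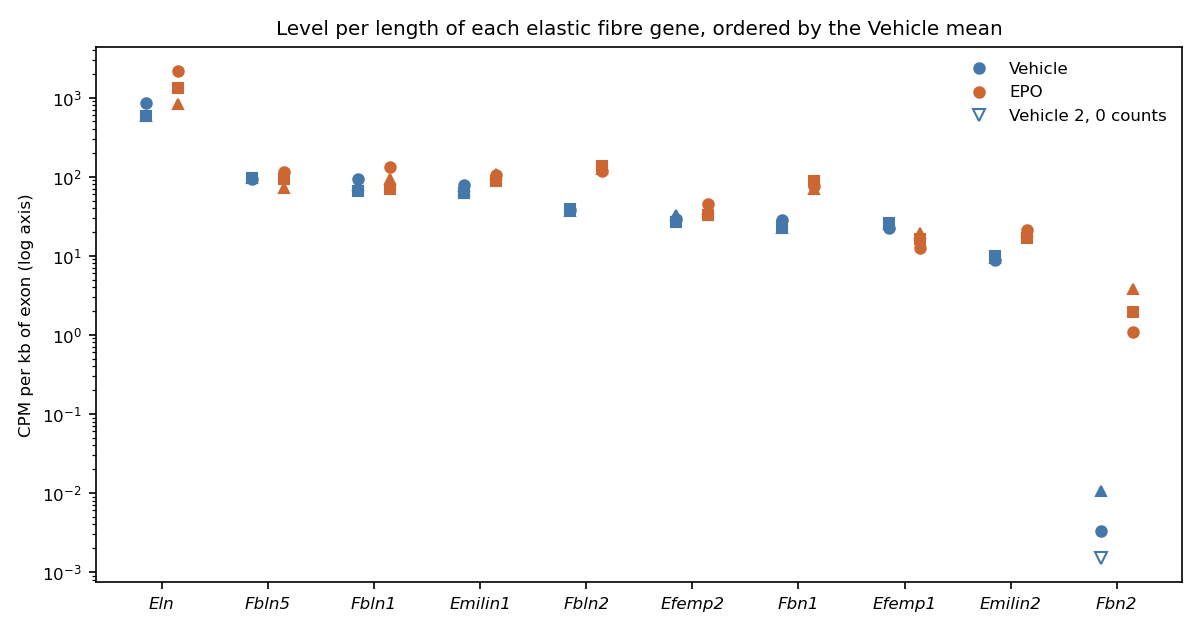
Level of each elastic fibre gene in CPM per kilobase of exon (log axis), genes ordered by the Vehicle mean; symbols are replicates 1, 2 and 3 (circle, square, triangle) in Vehicle (blue) and EPO (orange), and the open triangle at the foot stands for the 0 counts of Fbn2 in Vehicle 2. Eln lies above all other members, and Fbln2 moves from the fifth place in Vehicle to the second in EPO.

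The fibulins did not move as a group. Fbln2 encodes fibulin-2, a large fibulin of vessel walls that binds fibrillin and tropoelastin (ENSMUSG00000064080, chromosome 6, 91212455 to 91272540). It stood at 239, 245 and 232 CPM in Vehicle 1, 2 and 3 and at 755, 880.0 and 795 CPM in EPO 1, 2 and 3. Libraries within a group were close to each other and the groups far apart (log2 fold change 1.76, SE 0.14, edgeR adjusted p = 0.00105). Over the alternatives run the log2 fold change of Fbln2 lay between 1.70 and 1.8, and all kept the call.

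Fbln5 encodes fibulin-5, which mice need to assemble elastic fibres (ENSMUSG00000021186, chromosome 12, 101746565 to 101819055). It stood at 647, 671 and 663 CPM in Vehicle and at 797, 647 and 492 CPM in EPO. The EPO libraries lay on both sides of Vehicle, with a log2 fold change of -0.03 (SE 0.20, edgeR adjusted p = 0.92) that was 0.13 without EPO 3. Fbln1, the gene of fibulin-1, had 411, 291 and 339 CPM in Vehicle against 584, 304 and 412 CPM in EPO. Its groups overlapped, with EPO 1 well above all Vehicle libraries, and the log2 fold change was 0.32 (SE 0.26, edgeR adjusted p = 0.404). It was 0.04 without EPO 1, 0.19 without Vehicle 2 and 0.52 without EPO 2, and was not called in any alternative.

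Efemp1 and Efemp2 encode fibulin-3 and fibulin-4. Fibulin-4 binds lysyl oxidase, and mice need it for elastic fibre formation. Efemp1 (ENSMUSG00000020467, chromosome 11, 28853204 to 28926743) stood at 45.5, 52.3 and 50.9 CPM in Vehicle and at 25.7, 33.2 and 40.1 CPM in EPO. All EPO libraries lay below all Vehicle libraries, yet the call was narrow (log2 fold change -0.59, SE 0.17, edgeR adjusted p = 0.0468). It was lost without Vehicle 1, Vehicle 2, Vehicle 3 or EPO 2 (adjusted p = 0.0919, 0.137, 0.115 and 0.105), without both EPO 1 and EPO 2 (0.227, log2 fold change -0.30) and with library size alone (0.0647). Over the alternatives run the adjusted p of Efemp1 lay between 0.0174 and 0.227. Efemp2 (ENSMUSG00000024909, chromosome 19, 5473954 to 5482517) stood at 111, 102 and 123 CPM in Vehicle and at 172, 124 and 149 CPM in EPO. The groups nearly touched (log2 fold change 0.41, SE 0.16, edgeR adjusted p = 0.1).

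The emilins are glycoproteins found where elastin meets the microfibril. Emilin-1 is known in mice to limit TGF-beta signalling by holding back the maturation of its precursor. Emilin2 (ENSMUSG00000024053, chromosome 17, 71252172 to 71311978) stood at 48.8, 53.9 and 51.2 CPM in Vehicle 1, 2 and 3 and at 116, 91.7 and 113 CPM in EPO 1, 2 and 3. It was higher in every EPO library (log2 fold change 1.06, SE 0.13, edgeR adjusted p = 0.003), and the call held under the alternatives run. Emilin1 (ENSMUSG00000029163, chromosome 5, 30913402 to 30921277) stood at 384, 311 and 375 CPM in Vehicle and at 513, 434 and 538 CPM in EPO. Its EPO libraries also lay above all Vehicle libraries, but the difference did not pass (log2 fold change 0.47, SE 0.16, edgeR adjusted p = 0.0672), except in DESeq2 (0.0173). Over the alternatives run the adjusted p of Emilin1 lay between 0.0173 and 0.229.

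The order of the members per length changed between the groups. In Vehicle, Eln was followed by Fbln5 (95.6 ± 1.78 CPM per kilobase), Fbln1 (79.5 ± 13.9) and Emilin1 (72.3 ± 8.14). By their means they stood in this order, but the libraries of Fbln1 overlapped those of Fbln5 and of Emilin1. Fbln2 (37.5 ± 1.04) and Efemp2 (29.6 ± 2.87) came next, then Fbn1 (24.9 ± 2.86) and Efemp1 (24.3 ± 1.77). Fbln2 stood apart from both of its neighbours, while Fbn1 overlapped Efemp2 and Efemp1. In EPO, Fbln2 (127 ± 10.02) came after Eln, ahead of Emilin1 (100.2 ± 11.0), Fbln1 (99.1 ± 32.3) and Fbln5 (93.3 ± 22.1), and Fbn1 followed with 77.9 ± 9.78. This order too is one of means. Fbln2 stood apart from Emilin1, but EPO 1 had more Fbln1 than Fbln2, and Fbln1 overlapped each of Emilin1, Fbln5 and Fbn1. Below them came Efemp2 (39.1 ± 6.28), which stood apart from its neighbours, then Emilin2 (19.4 ± 2.38) and Efemp1 (16.2 ± 3.54), which overlapped each other, and Fbn2 was last in both groups. The order was the same with the length of the longest transcript in place of the exon union, which raised the share of Eln to 75.3% in Vehicle and 79.4% in EPO.

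Ratios of gene pairs within a library do not depend on how libraries are scaled, and 10 pairs were compared. One, Fbn2 to Fbn1, is a description only, since Fbn2 had to differ. For 6 of the 9 others the groups did not overlap, each with a two-sided exact permutation p of 0.1, which is the minimum for 3 against 3 libraries, and 0.15 after Benjamini-Hochberg adjustment over the 9. No ratio can therefore pass a threshold of 0.05. Among single tested genes, every EPO library lay above every Vehicle library for 22.9% and below for 21.0%. The share over all gene pairs was not computed. The pairs were chosen with earlier results of these data known, so the count of 6 is a description only. The log2 ratio of Fbln2 to Fbln5 was -1.44, -1.45 and -1.51 in Vehicle and -0.08, 0.44 and 0.69 in EPO, a rise of 1.82. That of Efemp2 to Efemp1 was 1.17 ± 0.19 in Vehicle and 2.18 ± 0.49 in EPO, and that of Emilin2 to Emilin1 -2.79 ± 0.24 and -2.21 ± 0.06 (SD, n = 3 each). Within each of these pairs of relatives, the balance thus lay apart between the groups. Fbn2 to Fbn1, taken with a prior count of 2 because of the 0 in Vehicle 2, went from -11.34 ± 0.87 to -5.14 ± 0.97.

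The ratios of Eln to other genes differed by pair. The groups overlapped against Fbn1, Lox and Pdgfra and stood apart against Col1a1 and Myh11. The log2 ratio of Eln to Fbn1 was 4.34, 4.02 and 4.13 in Vehicle and 4.26, 3.32 and 3.01 in EPO, with EPO 1 among the Vehicle values and EPO 2 and 3 below them (exact permutation p = 0.3, adjusted p = 0.3). Eln to Lox, the gene of the lysyl oxidase that cross-links elastin, was 4.65 ± 0.25 in Vehicle and 3.77 ± 0.99 in EPO (exact permutation p = 0.3), again with EPO 1 among the Vehicle values. Against Col1a1, a chain of type I collagen, Eln was lower in every EPO library, with log2 ratios of 1.25, 0.23 and 0.49 in Vehicle and -0.53, -1.08 and -2.11 in EPO. Against Myh11, smooth muscle myosin, it was higher in every EPO library, at 0.15, 0.11 and -0.10 in Vehicle and 4.23, 2.99 and 1.90 in EPO. Myh11 itself fell from 5237 ± 921 to 1369 ± 449 CPM (edgeR adjusted p = 0.00518). Within the EPO group the library with the least Myh11 had the most Eln, and the one with the most Myh11 had the least Eln. Against Pdgfra, a marker of fibroblasts, Fbn1 was higher in every EPO library (log2 ratio 1.59 ± 0.14 in Vehicle and 2.83 ± 0.24 in EPO), while Eln overlapped (5.76 ± 0.13 and 6.35 ± 0.67, exact permutation p = 0.3). Pdgfra itself went from 100 ± 15.8 to 133 ± 6.58 CPM (edgeR adjusted p = 0.0812, DESeq2 adjusted p = 0.046). The 7 fibroblast markers went both ways. Every EPO library lay above every Vehicle library for 3 of them and below for 3, beside 22.9% and 21.0% of tested genes. No other fibroblast marker was used as a reference.

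**Figure D3:**
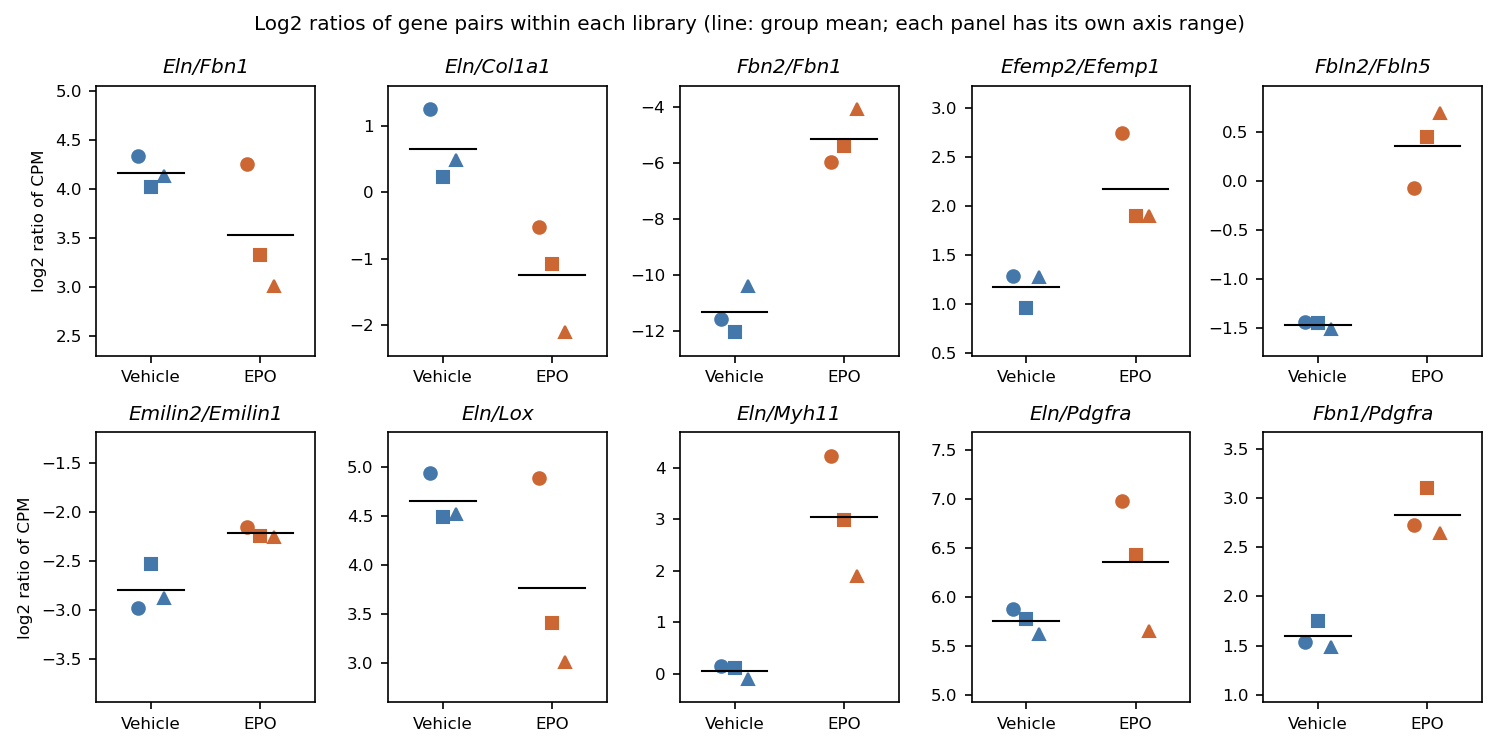
Log2 ratio of CPM of 10 gene pairs in each library (Vehicle blue, EPO orange; circle, square and triangle are replicates 1, 2 and 3; the line is the group mean; panels differ in range, and Fbn2/Fbn1 uses a prior count of 2). The groups overlap for Eln/Fbn1, Eln/Lox and Eln/Pdgfra and stand apart in the 7 other panels.

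Profiles over the 6 libraries were compared by the root mean square difference of centred log2 CPM. Nearest to Eln were Wscd1, Lrig1, Snx29, Zfp853 and Fgd5, at differences of 0.11 to 0.18. Being chosen for their nearness to Eln over these libraries, all 5 were, like Eln, highest in EPO 1 and lower in EPO 2 and then EPO 3. Nearest to Fbn1 were Igsf10, Myo10, Sec16b, Thsd1 and Fbln2, in that order, at 0.10 to 0.12. Fbln2 was the only other member among the nearest 5 of either gene, and Eln and Fbn1 lay 0.50 apart, and Eln ranked 1138 by nearness to Fbn1.

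Genes that work with the elastic fibre were taken from lists. These were drawn up with earlier results of these data known, so their counts describe the data and are no independent test. Of 7 cross-linking genes, 5 were called higher, beside 12.9% of all tested genes, and in all 7 every EPO library lay above every Vehicle library, beside 22.9%. None was lower in edgeR, in DESeq2 or at an unadjusted p under 0.05, and the median log2 fold change was 1.35. Lox rose from 215 ± 8.38 to 813 ± 213 CPM (3.79-fold, edgeR adjusted p = 0.00262), and Fkbp10, an isomerase of the endoplasmic reticulum that helps fold collagen and tropoelastin, rose 1.96-fold (edgeR adjusted p = 0.00532). Loxl3, a relative of Lox, rose 2.54-fold (edgeR adjusted p = 0.00537). The calls of Loxl2 and Loxl4 were lost without Vehicle 1, Vehicle 2, Vehicle 3, EPO 2 or EPO 3 (adjusted p from 0.0506 to 0.0931), so the count was 3 without Vehicle 1, Vehicle 2, Vehicle 3 or EPO 2. Loxl4 was also lost without both EPO 1 and EPO 2 (0.0759). Atp7a, a copper transporter that supplies lysyl oxidases, was not called (log2 fold change 1.75, edgeR adjusted p = 0.0536), but was without EPO 3 (0.0143), with no filter (0.0125), with library size alone (0.0473) and in DESeq2 (0.0048). Loxl1, which mice need to maintain elastic fibres, was not called (log2 fold change 0.92, edgeR adjusted p = 0.066), except without EPO 1 (0.47, 0.0423), with no filter (0.0278) and in DESeq2 (0.0122).

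Of 12 microfibril-binding genes, 4 were higher and 1 lower, beside 12.9% and 10.1% of all tested genes. The median log2 fold change was 0.20, which was 0.01 without EPO 1 and 0.13 without Vehicle 2. Adamts17, a secreted protease of the ADAMTS family linked to microfibrils, rose from 0.792 ± 0.263 to 6.14 ± 1.24 CPM (edgeR adjusted p = 0.00262). Ltbp2, a fibrillin-binding protein, rose 5.21-fold (187 ± 26.5 to 973 ± 374 CPM, edgeR adjusted p = 0.00306), and the microfibril-associated Mfap5 2.19-fold (168 ± 12.2 to 368 ± 37.9 CPM, edgeR adjusted p = 0.00298). Mfap2 was the other higher gene, at a log2 fold change of 1.84. The lower gene was Ltbp1, which anchors latent TGF-beta to microfibrils (653 ± 110.5 to 313 ± 52.6 CPM, edgeR adjusted p = 0.00912), and its call was lost without both EPO 1 and EPO 2 (0.0914). Without EPO 1, Ltbp4 (log2 fold change -1.10, adjusted p = 0.00727) and Adamtsl4 (-0.36, 0.0417) were called as well, giving 3 lower, and Adamtsl4 also in DESeq2 (0.0364). Among 6 relatives of the members, 2 were higher and 0 lower in edgeR, beside 12.9% and 10.1% of all tested genes. Hmcn1, a giant extracellular protein also called fibulin-6, rose 4.38-fold (edgeR adjusted p = 0.00336). Mmrn1, multimerin-1 of the emilin family, rose 2.71-fold (edgeR adjusted p = 0.00316). In DESeq2 0 relatives were lower, and 1 was at an unadjusted edgeR p under 0.05. Without EPO 3, Hmcn2 and Emilin3 were called too, giving 4 higher, and without EPO 1 Fbln7 was called lower (log2 fold change -1.16, adjusted p = 0.0258).

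**Figure D4:**
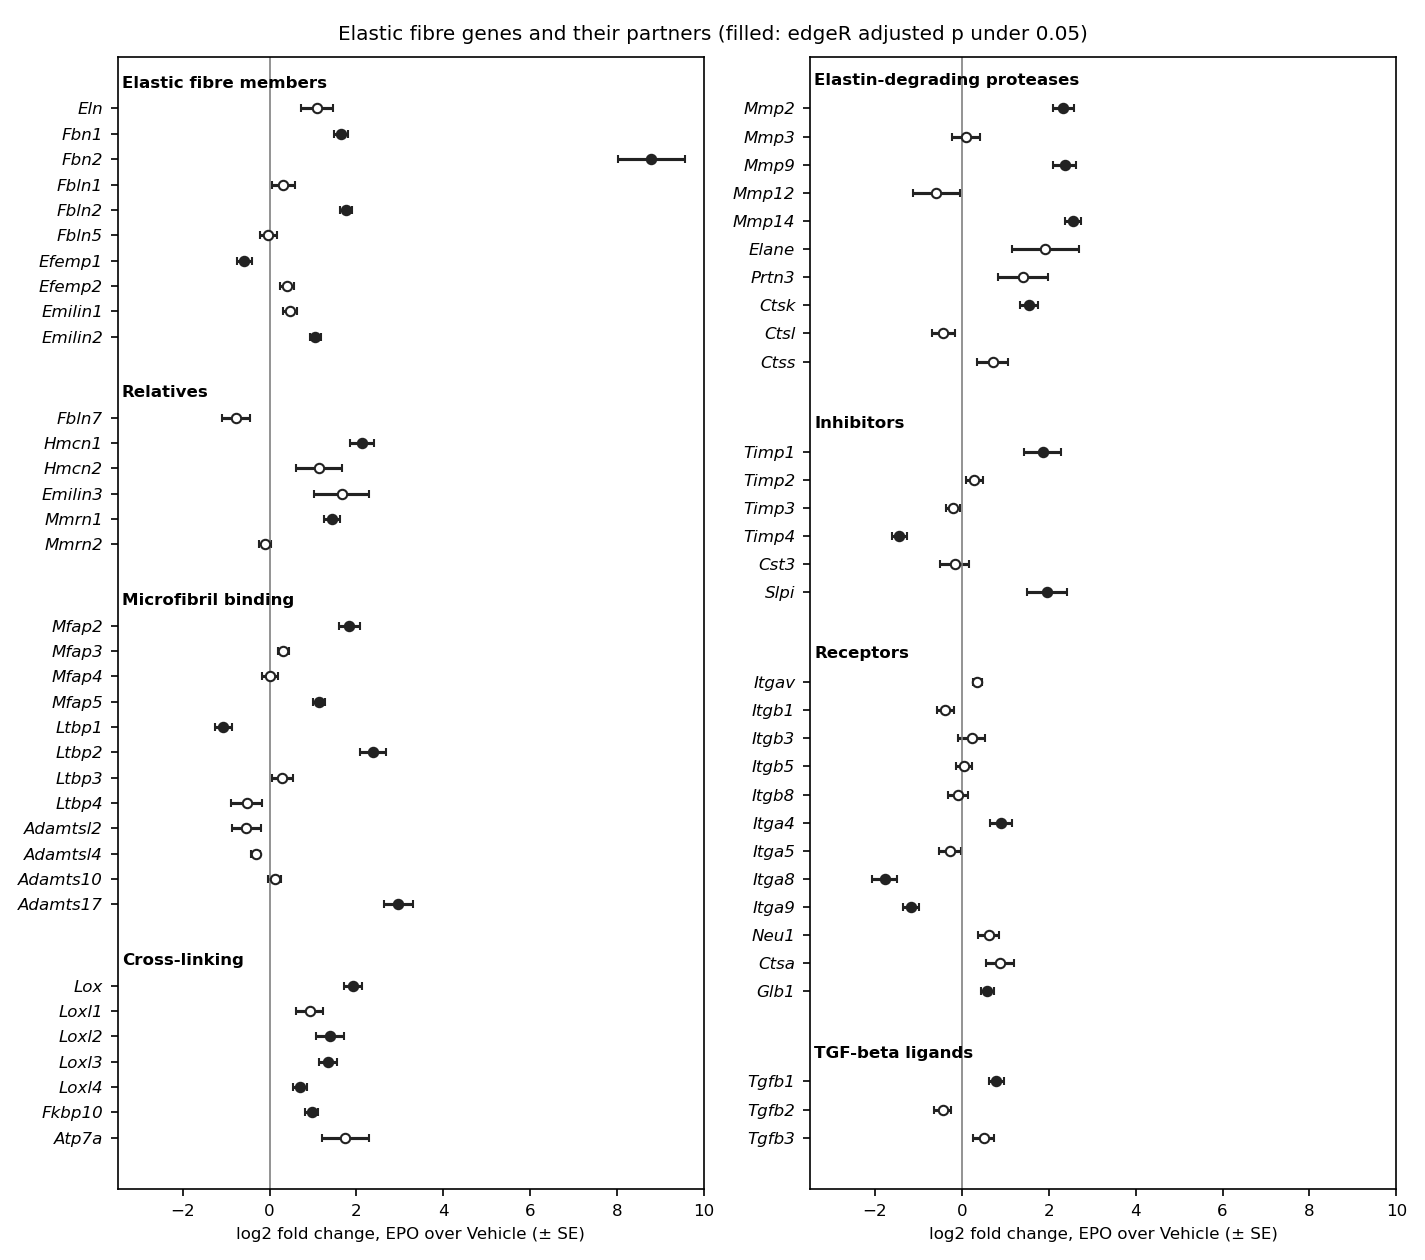
Log2 fold change of EPO over Vehicle with its SE from edgeR for the 10 elastic fibre genes and for the tested genes of the partner lists; filled points passed an adjusted p under 0.05. Fbn2, with 5 Vehicle counts, lies far to the right, cross-linking genes lie to the right of 0, and the other lists hold genes on both sides.

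Of 12 proteases that can cut elastin or elastic fibre proteins or activate such proteases, 10 were tested. Of these, 4 were higher, beside 12.9% of all tested genes. None was lower in edgeR, in DESeq2 or at an unadjusted p under 0.05. Mmp14, the membrane-bound protease that activates Mmp2, rose 5.89-fold, Mmp2 5.05-fold and Mmp9 5.16-fold (edgeR adjusted p = 0.000836, 0.00231 and 0.00262), and the cathepsin gene Ctsk 2.91-fold (0.00395). Mmp12, macrophage elastase, was at 238, 313 and 294 CPM in Vehicle and 367, 124 and 69.7 CPM in EPO. It did not pass (edgeR adjusted p = 0.464), but was lower without EPO 1 (log2 fold change -1.55, adjusted p = 0.0119) and without both EPO 1 and EPO 2 (-2.01, 0.0153). EPO 1 was the library with the largest share of macrophage markers. The part of that share in the value was not tested. Of 6 inhibitors, Timp1 and Slpi were higher and Timp4 lower (log2 fold changes 1.86, 1.95 and -1.44, edgeR adjusted p = 0.0212, 0.0222 and 0.00307). Over all tested genes 12.9% were higher and 10.1% lower. The calls of Timp1 and Slpi were both lost without Vehicle 2 (adjusted p = 0.0814 and 0.0783), and that of Slpi also without Vehicle 1 (0.0869) or EPO 3 (0.0567). Both were lost without EPO 1 and EPO 2 together (0.158 and 0.0698). Without EPO 1, Cst3, which encodes the cathepsin inhibitor cystatin C, was called lower as well (log2 fold change -0.68, adjusted p = 0.0191).

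Of 12 receptor genes tested, among them integrins that bind fibrillins, fibulins and emilins and the subunits of the elastin receptor complex, 2 were higher and 2 lower. These counts lie near the shares over all tested genes, 12.9% higher and 10.1% lower. The integrin subunits Itga8 and Itga9 fell, from 1705 ± 116 to 497 ± 185 CPM and from 481 ± 78.4 to 214 ± 28.7 CPM (edgeR adjusted p = 0.00616 and 0.00504). Itga9 lost its call without both EPO 1 and EPO 2 (0.0679). Itga4 and Glb1 were higher (log2 fold changes 0.90 and 0.59, edgeR adjusted p = 0.0376 and 0.0314). Both lost their calls with a replicate block (0.0678 and 0.0767) and without Vehicle 1, Vehicle 2 or Vehicle 3, and without both EPO 1 and EPO 2 (0.146 and 0.125), leaving 0 higher in each case. Itga4 was also lost without EPO 2 (0.0512) and in limma-voom (0.0612). In DESeq2 the integrin subunit gene Itgav (0.0115) and Ctsa, the protective protein of the elastin receptor complex (0.027), were called as well, giving 4 higher; the count was also 4 with no filter. Of the 3 TGF-beta ligands, Tgfb1 was higher (log2 fold change 0.79, edgeR adjusted p = 0.0163), beside 12.9% of all tested genes. Its call was lost without Vehicle 1 (0.0814) or Vehicle 2 (0.0704). With both EPO 1 and EPO 2 left out its log2 fold change was 0.63. Without EPO 1 the call of Tgfb3 was made as well (log2 fold change 0.71, adjusted p = 0.0206).

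The 250 bases before each RefSeq start were read for the members with an entry in RefSeq's table (build GRCm38.p6), 8 of the 10 with 13 starts; Eln and Fbn2 have no sequence here. The windows of Fbn1, Fbln2 and Emilin1 lie wholly inside exons of the GENCODE annotation, and that of the other Emilin2 start by 178 bases, so these may be transcribed sequence rather than promoter. Windows are shown at 1 start each of a member that rose (Emilin2), the member that fell (Efemp1) and a member that was not called (Fbln5). They run 5′ to 3′ on the gene's strand and set the 3 responses beside these bases. Capitals mark the GC box GGGCGG, the AP-1-like pattern TGANTCA and the TEAD motif GGAATG on either strand, none of which overlap here. In TGANTCA the N stands for any base, so a match need not be an AP-1 motif.
Emilin2, chr17:71311012-71311261, minus strand: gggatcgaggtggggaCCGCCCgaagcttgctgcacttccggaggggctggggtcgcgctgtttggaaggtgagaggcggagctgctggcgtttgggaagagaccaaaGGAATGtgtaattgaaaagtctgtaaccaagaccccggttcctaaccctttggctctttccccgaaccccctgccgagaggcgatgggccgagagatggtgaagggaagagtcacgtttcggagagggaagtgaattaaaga
Efemp1, chr11:28852955-28853204, plus strand: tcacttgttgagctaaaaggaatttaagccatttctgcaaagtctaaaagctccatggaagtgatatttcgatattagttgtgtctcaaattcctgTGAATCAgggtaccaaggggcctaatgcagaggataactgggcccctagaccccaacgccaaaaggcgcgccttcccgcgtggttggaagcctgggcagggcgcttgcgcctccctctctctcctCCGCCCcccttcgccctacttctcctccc
Fbln5, chr12:101819120-101819369, minus strand: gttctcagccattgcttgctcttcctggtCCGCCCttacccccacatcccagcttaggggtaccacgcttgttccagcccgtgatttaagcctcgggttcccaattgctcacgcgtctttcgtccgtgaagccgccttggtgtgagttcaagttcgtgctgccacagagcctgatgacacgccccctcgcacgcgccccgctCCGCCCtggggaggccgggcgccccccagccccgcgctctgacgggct

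Of 32841 mouse starts searched over the same length, 32.7% hold the GC box, 6.75% the AP-1-like pattern and 12.6% the TEAD motif. The shown windows of Emilin2 and Efemp1 each hold 1 GC box and that of Fbln5 holds 2, while the other window of Emilin2 and that of Fbln5 hold 0. Among the 13 windows of the 8 members, those inside exons included, the AP-1-like pattern occurs at that of Efemp1 alone, as TGAATCA. The TEAD motif occurs at the shown start of Emilin2 alone. The TATA box TATAAA (12.4% of all starts) and the CArG box (1.47%) are in none of the 13 windows. A match describes the letters of the window, not a binding site.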

How the data were processed

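RNA sequencing counts of mouse aorta were used, 3 libraries per group. The authors deposited 1 table of counts per Ensembl gene with no normalization, which was checked on the values (whole numbers, unequal totals). Per the submitters' processing notes, CASAVA 1.8 was used for base calls and TopHat2 2.0.6 for alignment to mm10; no source used here names the counting tool, strand setting or annotation. Columns named Con were read as Vehicle, with their number as the replicate. Symbols, GRCm38 coordinates and exon lengths came from GENCODE M21 (47224 IDs matched, 419 did not).

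The filterByExpr filter on low counts left 16522 genes. Libraries were scaled by TMM and tested in R 4.3.3 with edgeR 4.0.16 (quasi-likelihood, two-sided, group as the only term), with Benjamini-Hochberg adjustment over all tested genes and an adjusted p under 0.05 as the threshold. Adjusted p-values of genes are edgeR's unless named otherwise. Single values were compared by exact permutation tests (scipy 1.17.1). Alternatives used DESeq2 1.42.0 and limma 3.58.1, other scalings and filters, and left-out libraries. The limit that 0 counts allow is 3 counts, 0.0837 to 0.13 CPM per library.

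The members, gene lists and gene pairs were chosen with earlier results of these data known. By the rule for names, the text names all members, up to 3 genes of smallest p per partner list, further list genes that complete a count of 5 or fewer or that did not pass and are given with values, and the 5 genes nearest in profile to Eln and Fbn1. Of the marker lists, given as counts, Myh11 and Pdgfra are named as parts of ratios. Exons of Eln, Fbn1, Fbn2 and Efemp2 overlap genes on the opposite strand by 267, 2442, 129 and 173 bases. The partners of the first 3 had at most 8 counts in any library, and Mus81, beside Efemp2, 504 to 792.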

Additional observations from a re-analysis of the deposited data

How the results depend on the processing

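Fbn1, Fbln2 and Emilin2 kept their calls under every alternative run. Fbn2 was called in each as well, but it had to differ. The count of higher members, Fbn2 included, was 4 to 6, and without Fbn2 it was 3 in the main fit. Efemp1 was the only lower member, and the count of lower members was 0 with library size alone, 0 without both EPO 1 and EPO 2, and 0 to 1 with single libraries left out. Over all genes, 2133 were higher and 1671 lower. With single libraries left out the count of higher genes ran from 936 to 2265 and that of lower genes from 699 to 2016, and without both EPO 1 and EPO 2 they were 1085 and 463. Fewer samples entered these fits. Fbln5, which was not called, changed sign without EPO 3; with single libraries left out its log2 fold change ran from -0.23 to 0.13, and the cause was not tested. With the replicate number as a block 1630 genes were higher and 1254 lower, and 4 and 1 members. Deviations of same-numbered samples had correlations of -0.01, -0.01 and 0.13, and replicate 3 alone correlated best with its own number. With 3 libraries per group these values cannot settle whether same-numbered samples were paired. No gene pair changed the sign of its difference when a library was left out or a prior count of 2 was used. Precision is limited by 3 libraries per group and, for Fbn2, by its 5 Vehicle counts.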
